A study of Rattus norvegicus with 24 samples.

Results

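The structural matrix genes described here encode the collagen chains, the laminin chains, the nidogens, fibronectin and agrin. They were chosen by a rule on names, with earlier results of these data known. Every transcript cluster with a single gene symbol, brought up to date through its Entrez identifier, whose symbol belongs to one of these families was taken. This gave 51 clusters for 49 genes of the 18166 genes tested. By role, 19 of the genes belong to basement membranes, 11 are fibrillar collagens, 7 are fibril-associated collagens, 3 are chains of collagen VI, 3 are network-forming collagens, 3 are membrane-spanning collagens and 2 are other collagens (Col7a1 and Col26a1), beside the fibronectin gene Fn1. RefSeq lists 60 rat symbols of these families, and 11 of them, among them Hspg2 (perlecan), Lamb1 and Col4a6, were not analysed here.

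Affymetrix Rat Gene 2.0 ST arrays measured the RNA of retinal microvessels (RMVs) and retinal tissue (RT), and of brain microvessels (BMVs) and brain tissue (BT), with 6 arrays per group. All samples came from 6 male Wistar rats aged 12 weeks, the labels name no treatment or allele, and each array held RNA of a single rat amplified from 1 ng. The study's methods describe cryosections of frozen eyes as the source of RT and RMVs alike, so both can hold RNA of other eye layers. The brain was instead freed of meninges, surface vessels, choroid plexus and white matter before sectioning. Microvessels were isolated mechanically and caught on a nylon mesh, so that all cells of the vessel wall entered the RNA.

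The values are log2 signals as deposited, and a difference of 1 is a 2-fold change. A gene was called higher or lower where it changed 2-fold or more and limma's p, adjusted over all genes, was under 0.05, and the errors of fold changes are standard errors (SE) of that model. The array medians were unequal: their group medians were 6.81 in RMVs, 6.17 in RT, 6.50 in BMVs and 5.91 in BT. The median of all genes was accordingly shifted by 0.33 for RMVs against RT and by 0.30 for BMVs against BT, and quantile normalization turned these shifts to -0.15 and -0.15. In RMVs against RT, 0 called and 16 uncalled genes of the 49 turned their sign under that normalization and the other 12 uncalled genes kept theirs. With arrays centred on their medians 18 uncalled genes turned their sign, and with arrays centred on reference genes 26 did, again with 0 called genes. Of the markers of the vessel wall, 8 of 8 endothelial genes and 8 of 8 genes of pericytes and smooth muscle cells were higher in either kind of microvessel than in its tissue. Among all genes 10.3% were higher in RMVs than in RT and 16.3% in BMVs than in BT. Photoreceptor markers remained in RMVs at the level of RT: the mean of 7 genes was 11.9 to 12.3 on the RMV arrays and 12.2 to 12.3 on the RT arrays. In such bulk RNA, fewer cells of a type and less RNA per cell cannot be told apart.

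Basement membranes are thin sheets that underlie endothelial cells and enclose pericytes. Laminin trimers of an alpha, a beta and a gamma chain and a network of collagen IV form their layers, which nidogens and heparan sulfate proteoglycans such as agrin link. Fibrillar collagens such as collagens I and III instead assemble into the tension-bearing fibers of connective tissue, which around brain vessels are made mainly by fibroblasts and mural cells.

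The genes of collagen IV lie in head-to-head pairs that share the stretch between their starts. Sequence of the first 2 pairs is shown here, and its part in the changes of these genes was not tested. In the GRCr8 assembly of RefSeq, Col4a2 on the minus strand and Col4a1 on the plus strand are separated by 76 bases at chr16:84885521-84885596. Col4a4 and Col4a3 are 412 bases apart on chromosome 9, of which the 250 bases before Col4a3 (chr9:91323740-91323989) are given. For comparison with a fibrillar collagen, the 250 bases before Col1a2 (chr4:33518307-33518556) follow. All are written on the plus strand, and the capitals mark matches to GGGCGG (the GC box), CCAAT or TATAAA (the TATA box) on either strand.
Col4a2 to Col4a1: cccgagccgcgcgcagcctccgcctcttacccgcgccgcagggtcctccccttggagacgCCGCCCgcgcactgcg
Before Col4a3: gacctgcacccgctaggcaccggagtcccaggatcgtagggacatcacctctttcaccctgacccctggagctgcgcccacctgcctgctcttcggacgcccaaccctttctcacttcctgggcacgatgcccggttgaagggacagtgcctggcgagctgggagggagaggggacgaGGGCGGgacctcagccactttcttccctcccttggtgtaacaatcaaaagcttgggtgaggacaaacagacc
Before Col1a2: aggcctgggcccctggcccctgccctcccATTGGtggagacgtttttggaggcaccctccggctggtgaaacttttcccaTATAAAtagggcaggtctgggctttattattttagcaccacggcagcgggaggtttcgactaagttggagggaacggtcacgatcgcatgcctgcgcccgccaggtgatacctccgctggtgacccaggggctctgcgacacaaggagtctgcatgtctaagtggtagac
Both collagen IV stretches held 1 GC box and no TATAAA, whereas the stretch before Col1a2 held 1 CCAAT, read on the minus strand, and 1 TATAAA and no GC box. The bases G and C made up 78.9% of the stretch between Col4a2 and Col4a1, 62% of that before Col4a3 and 58.4% of that before Col1a2. Promoters of 300 bases (250 before and 50 after the start) were given by RefSeq for 40 of the 49 genes. A GC box was in those of 10 of 17 basement membrane genes and 6 of 8 fibrillar collagen genes, against 36% of all 27457 genes with a promoter. TATAAA was in 1 of 17 and 1 of 8 (15.3% of all genes), and CCAAT in 6 of 17 and 3 of 8 (39.6% of all genes). The 6 with CCAAT include Col4a1 and Col4a2, whose promoters reach beyond the 76 bases shown, and the 3 include Col1a2. The motifs searched do not overlap each other in these stretches, and a match is a description of the letters only.

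The first comparison asks which matrix genes mark the retinal microvessel within the retina. Of the 49 genes, 21 (42.9%) were higher in RMVs than in RT, against 10.3% of all genes, and 0 were lower, against 0.947% of all genes. The basement membrane held most of them, with 14 of 19 genes higher and a median log2 fold change of 1.26, while 4 of 11 fibrillar collagens were higher with a median of 0.68. After quantile normalization the background was 5.14% higher and 5.05% lower, and 12 matrix genes were higher and 1 (Lamb3) lower. Of the 9 calls lost, 6 were basement membrane genes (Col4a1, Col4a3, Col4a4, Lama3, Lamc3 and Nid2) and the others Col1a1, Col5a2 and Col6a2. With arrays centred on 3 reference genes, Fn1, Lama2, Lama4, Lama5, Lamb2, Lamc1 and Nid1 were called higher.

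In brain microvessels the same question gave more and larger changes. Of the 49 genes, 31 (63.3%) were higher in BMVs than in BT, against 16.3% of all genes, and 0 were lower, against 10.5% of all genes. Here 18 of 19 basement membrane genes were higher, all but Lamb3, with a median of 2.45, and 4 of 11 fibrillar collagens were higher, with a median of 0.78. Quantile normalization gave 21 genes higher and 0 lower, with 9.91% and 13.5% of all genes called in these directions, and the 10 calls lost were those of Col4a3, Col4a4, Col4a5, Col6a2, Col6a3, Col7a1, Col8a1, Col8a2, Col11a1 and Col13a1. Of the 21 genes higher in RMVs, 20 (95.2%) were also higher in BMVs, which is 64.5% of the 31 genes there. The same share over all genes is not given here. The study reported that most of all genes enriched in RMVs were enriched in BMVs too, so such an overlap is not particular to matrix genes. The single gene called only in RMVs, Col5a2, had a log2 fold change of 0.90 in BMVs. The 11 genes called only in BMVs were Lama1, Col4a5, Col15a1, Col18a1, Col12a1, Col6a3, Col7a1, Col8a1, Col8a2, Col11a1 and Col13a1.

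**Figure D1:**
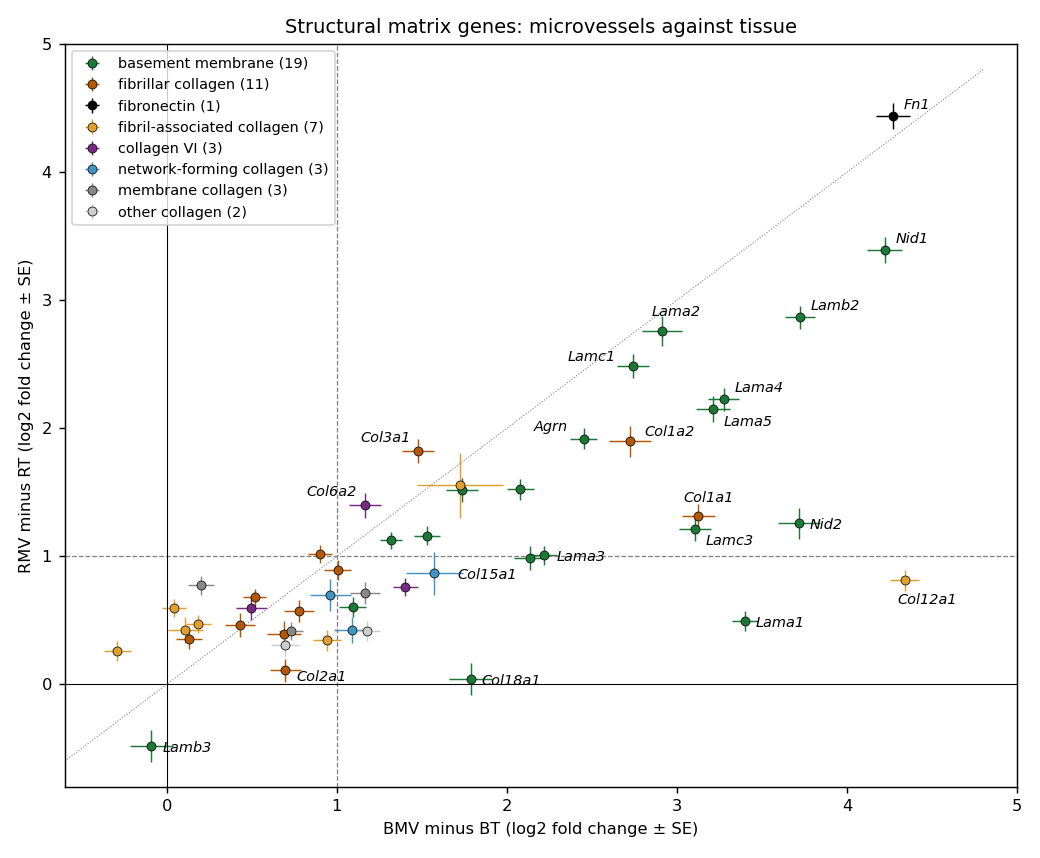
Log2 fold change of 49 structural matrix genes in BMVs against BT (x axis) and in RMVs against RT (y axis), as points with bars of 1 SE, colored by class. Dashed lines mark 2-fold and the dotted line equal change in both organs. Fn1 lies highest at 4.44 and 4.27, and Lama1, Nid2 and Col12a1 lie far to the right, with 3.40, 3.72 and 4.34 in BMVs against 0.49, 1.26 and 0.81 in RMVs.

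Fibronectin, a matrix glycoprotein bound by integrins that links cells to collagen, had the largest change of all 49 genes in RMVs. The RMV arrays held Fn1 at 11.79, 12.24 and 12.51 (lowest, median and highest), against 7.44, 7.84 and 8.03 on the RT arrays. In BMVs the values were 12.56, 12.71 and 12.89, against 8.25, 8.48 and 8.55 in BT. Every microvessel array lay above every tissue array of its organ, by a gap far wider than the spread within the groups. The log2 fold changes were 4.44 ± 0.10 in the retina (21.7-fold, adjusted p = 1.75e-22 by limma) and 4.27 ± 0.10 in the brain (19.3-fold, adjusted p = 1.03e-22). The enrichment did not pass the test of a difference between the organs (0.17 ± 0.14, adjusted p = 0.321).

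Nid1 encodes nidogen-1, which bridges the laminin and the collagen IV network. It lay at 10.93, 11.55 and 11.69 on the RMV arrays, against 7.92, 8.01 and 8.26 in RT. The BMV arrays held 12.08, 12.15 and 12.29, against 7.74, 7.96 and 8.13 in BT. These groups did not overlap, and the log2 fold changes were 3.39 ± 0.10 in RMVs and 4.22 ± 0.10 in BMVs (10.5-fold and 18.7-fold). Its paralog Nid2 rose far less in RMVs, to 7.16, 7.72 and 8.02, against 6.29, 6.35 and 6.74 in RT. In BMVs Nid2 lay at 9.86, 10.05 and 10.34, against 6.02, 6.36 and 6.67 in BT. Its log2 fold change was thus 1.26 ± 0.12 in RMVs and 3.72 ± 0.12 in BMVs, and the enrichment differed by -2.46 ± 0.17 (adjusted p = 2.80e-12 by limma). The RT and BT arrays overlapped (0.10 ± 0.12, adjusted p = 0.492), and RMVs lay below BMVs by -2.36 ± 0.12.

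Lama4, Lama5, Lama2, Lamb2 and Lamc1, laminin chains known from mature vessel walls, rose in both kinds of microvessel. Lama4, the alpha chain of endothelial laminin-411, lay at 10.51, 10.64 and 10.99 in RMVs, against 8.27, 8.44 and 8.73 in RT. In BMVs it lay at 11.72, 11.76 and 11.88, against 8.21, 8.55 and 8.69 in BT. Its second cluster on the array gave the same calls. Lama5, the alpha chain of endothelial laminin-511, reached 8.02, 8.50 and 8.85 in RMVs, against 6.05, 6.40 and 6.48 in RT. The BMV arrays held Lama5 at 9.46, 9.67 and 9.76, against 6.34, 6.41 and 6.57 in BT. For both chains each microvessel array was above each tissue array, with log2 fold changes of 2.23 ± 0.09 and 2.15 ± 0.10 in RMVs and of 3.27 ± 0.09 and 3.21 ± 0.10 in BMVs.

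Lama2, the alpha chain of laminin-211, which pericytes, smooth muscle cells, fibroblasts and astrocytes deposit, was at 7.21, 7.75 and 8.09 in RMVs, against 4.79, 4.92 and 5.28 in RT. The BMV values were 9.05, 9.15 and 9.29, against 5.96, 6.33 and 6.51 in BT. Lama2 was lower in the retina in vessels and in tissue alike, and its enrichment of 2.76 ± 0.12 in RMVs and 2.91 ± 0.12 in BMVs did not pass the test of a difference ( -0.15 ± 0.17, adjusted p = 0.453). Lamb2 and Lamc1 encode a beta and a gamma chain that join alpha chains in laminins of vessel walls, and both rose in each kind of microvessel. Lamb2 lay at 10.09, 10.58 and 10.82 in RMVs, against 7.52, 7.69 and 7.82 in RT, and Lamc1 at 9.03, 9.49 and 9.74, against 6.80, 6.94 and 7.27. In BMVs Lamb2 lay at 11.90, 11.96 and 12.10, against 8.17, 8.26 and 8.29 in BT, and Lamc1 at 10.70, 10.72 and 10.81, against 7.81, 8.01 and 8.18. The changes were 2.87 ± 0.09 for Lamb2 and 2.48 ± 0.10 for Lamc1 in RMVs, and 3.72 ± 0.09 and 2.74 ± 0.10 in BMVs, with no overlap between the groups.

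Lama1, the alpha chain of laminin-111, which is known from early embryonic basement membranes and the meninges, set the organs apart most clearly among the laminins. The RMV arrays held it at 6.46, 6.59 and 6.68, against 5.95, 6.07 and 6.34 in RT. The BMV arrays held 8.97, 9.37 and 9.42, against 5.78, 5.87 and 6.05 in BT. Lama1 was thus 10.5-fold higher in BMVs than in BT (3.40 ± 0.08, adjusted p = 3.75e-23 by limma), whereas RMVs and RT, which did not overlap either, differed by 0.49 ± 0.08. That small difference turned to -0.16 after quantile normalization. The enrichment differed by -2.91 ± 0.11 (adjusted p = 1.84e-17).

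Lamc3, a gamma chain found in basement membranes of the retina and brain surface, was at 8.38, 8.83 and 9.07 in RMVs, against 7.29, 7.59 and 7.74 in RT. It was at 9.92, 9.99 and 10.19 in BMVs, against 6.78, 6.92 and 7.10 in BT. The changes of 1.21 ± 0.10 and 3.11 ± 0.10 differed by -1.89 ± 0.13 (adjusted p = 3.56e-12 by limma). Lama3, an alpha chain of epithelial laminins, lay at 6.84, 6.95 and 7.07 in RMVs, against 5.83, 5.94 and 6.08 in RT. The BMV arrays held it at 7.49, 7.55 and 7.75, against 5.05, 5.39 and 5.55 in BT. With 1.01 ± 0.07 in RMVs Lama3 stood just past the 2-fold line and dropped below it without RMV array 3 or 6 or RT array 2 or 4 (0.984 to 0.997), while in BMVs it rose by 2.22 ± 0.07. Its change in RMVs fell to 0.39 after quantile normalization and to 0.08 after centring on reference genes (adjusted p = 0.413 by limma).

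Lamb3, a beta chain of epithelial laminins, departed from all other basement membrane genes: it was higher in the retina than in the brain, in vessels and in tissue. It lay at 7.01, 7.31 and 7.68 in RMVs, against 7.40, 7.89 and 8.11 in RT, and these groups overlapped. In BMVs it lay at 5.28, 5.39 and 5.56, against 5.19, 5.51 and 5.84 in BT, again with overlap. Lamb3 did not pass the call in RMVs against RT (-0.48 ± 0.12) or in BMVs against BT (-0.09 ± 0.12, adjusted p = 0.503). Between the organs it was higher in RMVs than in BMVs by 1.93 ± 0.12 and in RT than in BT by 2.32 ± 0.12 (4.99-fold, adjusted p = 3.06e-15 by limma). After quantile normalization it was called lower in RMVs than in RT, with -1.08.

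**Figure D2:**
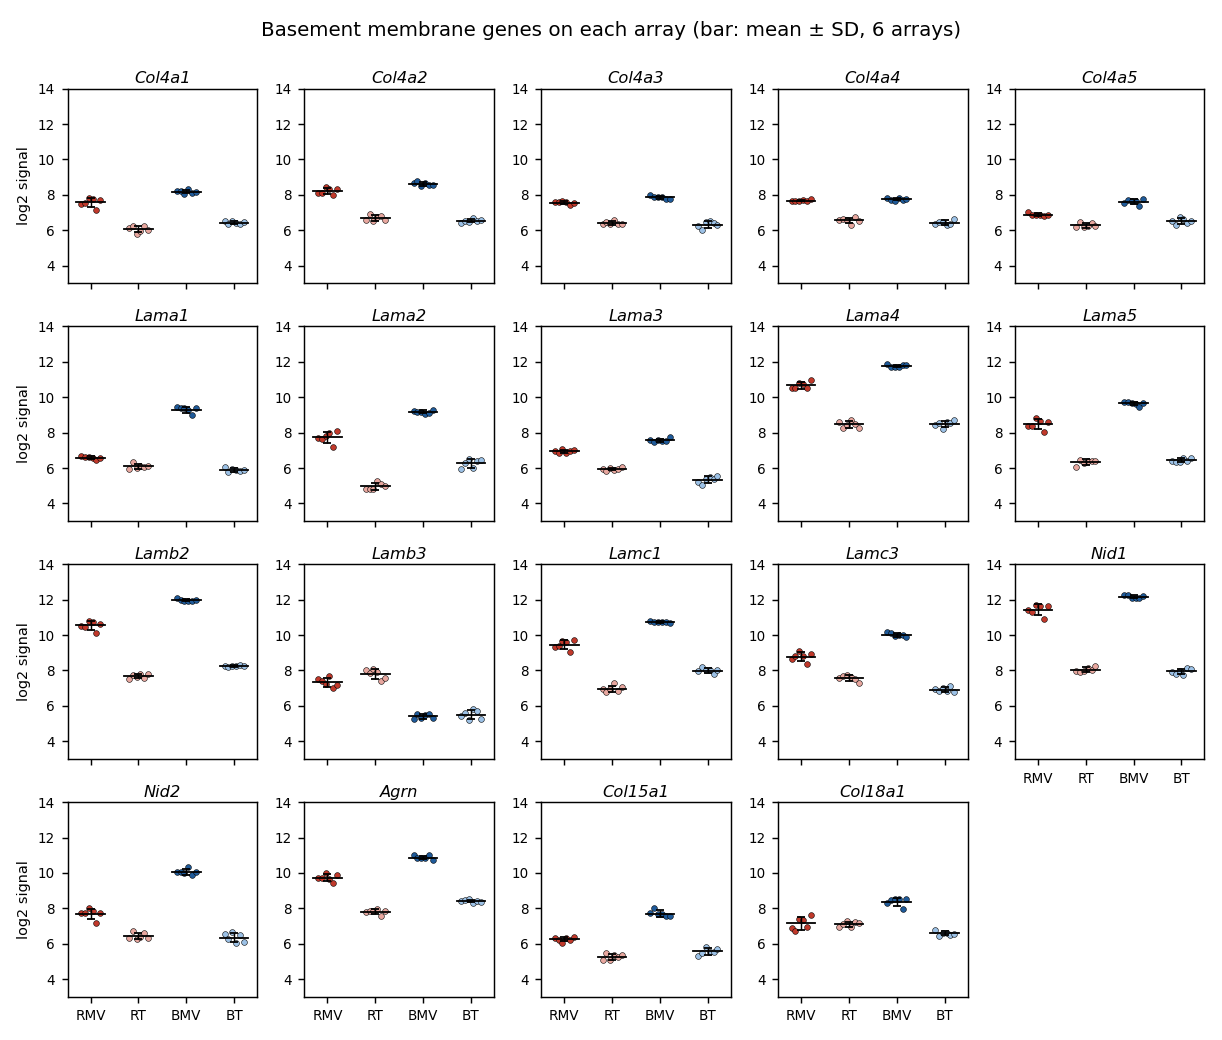
Log2 signal of 19 basement membrane genes on each array, with a point per array and bars for the mean ± SD of 6 arrays. RMVs stand left of RT and BMVs left of BT, and the mean of BMVs is the highest in every panel but that of Lamb3, where RMVs (7.01 to 7.68) and RT (7.40 to 8.11) lie above both brain groups.

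Collagen IV, the network that gives basement membranes their tensile strength, rose in RMVs with 4 of its 5 measured chains, by 1.12 to 1.52, and in BMVs with all 5, by 1.09 to 2.08. Col4a1 lay at 7.15, 7.63 and 7.85 in RMVs, against 5.78, 6.07 and 6.26 in RT, and Col4a2 at 7.998, 8.22 and 8.44, against 6.54, 6.66 and 6.92. In BMVs Col4a1 lay at 8.06, 8.17 and 8.30, against 6.33, 6.45 and 6.51 in BT, and Col4a2 at 8.50, 8.61 and 8.76, against 6.43, 6.52 and 6.71. None of these groups overlapped. The genes of this pair, which share the 76 bases shown above, changed by 1.52 ± 0.09 and 1.52 ± 0.08 in RMVs and by 1.74 ± 0.09 and 2.08 ± 0.08 in BMVs. Between RT and BT Col4a1 had -0.38 ± 0.09 and Col4a2 had 0.16 ± 0.08, neither of them called. For Col4a2 these tissue arrays overlapped and the test was not passed (adjusted p = 0.0727 by limma). The calls in RMVs depended on the scaling: Col4a1 fell to 0.98 after quantile normalization and both genes to 0.59 after centring on reference genes, while in BMVs both were called under every scaling.

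The pair Col4a3 and Col4a4, chains of the network known from the glomerulus, the lung and the eye, also rose in both kinds of microvessel. Col4a3 was at 7.43, 7.58 and 7.65 in RMVs, against 6.33, 6.35 and 6.58 in RT, and Col4a4 at 7.64, 7.66 and 7.76, against 6.30, 6.56 and 6.72. In BMVs Col4a3 was at 7.76, 7.85 and 7.97, against 5.99, 6.36 and 6.50 in BT, and Col4a4 at 7.68, 7.74 and 7.82, against 6.27, 6.42 and 6.62. Each microvessel array was above each tissue array, with changes of 1.16 ± 0.07 and 1.12 ± 0.07 in RMVs and of 1.53 ± 0.07 and 1.32 ± 0.07 in BMVs. Under quantile normalization neither gene was called in RMVs or in BMVs. Col4a5, which joins Col4a3 and Col4a4 in 1 trimer, lay at 6.79, 6.87 and 7.02 in RMVs, against 6.17, 6.22 and 6.49 in RT, and at 7.38, 7.65 and 7.75 in BMVs, against 6.28, 6.51 and 6.75 in BT. It was called in BMVs (1.09 ± 0.08) and not in RMVs (0.60 ± 0.08).

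Agrin, a heparan sulfate proteoglycan of the basement membrane of brain capillaries, was at 9.44, 9.70 and 10.02 in RMVs, against 7.58, 7.83 and 7.98 in RT. In BMVs Agrn was at 10.75, 10.83 and 10.996, against 8.31, 8.41 and 8.52 in BT. No arrays overlapped, and the changes were 1.92 ± 0.08 and 2.45 ± 0.08. Collagens XV and XVIII link basement membranes to the matrix around them, and the end piece of collagen XVIII is endostatin, an inhibitor of vessel growth. Col18a1 lay at 6.70, 7.13 and 7.65 in RMVs, against 6.94, 7.13 and 7.29 in RT, and at 7.94, 8.48 and 8.54 in BMVs, against 6.45, 6.57 and 6.76 in BT. The retinal groups overlapped and did not differ in the test (0.04 ± 0.13, adjusted p = 0.783), whereas BMVs were above BT by 1.79 ± 0.13. The enrichment differed by -1.75 ± 0.18 (adjusted p = 3.46e-09 by limma). Col15a1 lay at 6.06, 6.26 and 6.41 in RMVs, against 5.06, 5.29 and 5.48 in RT, and at 7.54, 7.69 and 8.03 in BMVs, against 5.28, 5.55 and 5.82 in BT. As deposited, it had 0.99 ± 0.09 in RMVs, just under 2-fold, where the median of all genes was 0.33. With 2.14 ± 0.09 it was called in BMVs. The value in RMVs depends on the scaling: centring arrays on their medians shifts all genes alike, and took Lama3 from 1.01 to 0.36.

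The fibrillar collagens split into chains of collagens I and III, which marked the vessels, and chains of collagens II, V, XI, XXIV and XXVII, of which only Col5a2 and Col11a1 passed 2-fold in 1 organ each. Col1a1, the main chain of collagen I, lay at 7.43, 7.60 and 7.86 in RMVs, against 6.24, 6.32 and 6.45 in RT. On the BMV arrays it lay at 9.78, 9.94 and 10.18, against 6.38, 6.92 and 7.06 in BT. All microvessel arrays were above all tissue arrays, but the change was 1.31 ± 0.10 in RMVs (2.48-fold) and 3.13 ± 0.10 in BMVs (8.72-fold), a difference of -1.81 ± 0.14 (adjusted p = 9.20e-12 by limma). Its partner Col1a2 was at 7.33, 7.74 and 8.23 in RMVs, against 5.65, 5.94 and 5.98 in RT, and at 9.35, 9.51 and 9.79 in BMVs, against 6.53, 6.87 and 7.14 in BT. The changes of Col1a2 were 1.90 ± 0.12 and 2.72 ± 0.12, and the difference of -0.83 ± 0.17 did not reach 2-fold.

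In the deposited values Col3a1, the chain of collagen III in distensible walls, changed by less in the brain than in the retina. It lay at 7.49, 7.79 and 8.03 in RMVs, against 5.83, 5.94 and 6.17 in RT, and at 8.29, 8.46 and 8.80 in BMVs, against 6.98, 7.03 and 7.07 in BT. Again no arrays overlapped, and the changes were 1.82 ± 0.09 in RMVs and 1.48 ± 0.09 in BMVs (difference 0.34 ± 0.13, adjusted p = 0.0283 by limma, under 2-fold). After centring on reference genes the changes were alike, with 0.89 in RMVs and 0.88 in BMVs. Col5a2, a minor chain of the collagen V that starts fibrils, was at 6.56, 6.76 and 6.88 in RMVs, against 5.61, 5.72 and 5.80 in RT, and at 6.75, 6.92 and 7.11 in BMVs, against 5.84, 6.03 and 6.17 in BT. Its change of 1.02 ± 0.07 in RMVs slipped to 0.987 without RMV array 6 and to 0.993 without RT array 6. It fell to 0.40 after quantile normalization and to 0.09 after centring on reference genes (adjusted p = 0.345 by limma). Col11a1, a chain of the collagen XI of cartilage and vitreous, was at 7.27, 7.48 and 7.67 in RMVs, against 6.45, 6.55 and 6.77 in RT, and at 6.40, 6.61 and 6.78 in BMVs, against 5.52, 5.58 and 5.70 in BT. It had 0.89 ± 0.08 in RMVs and 1.00 ± 0.08 in BMVs, and the call in BMVs was lost without BMV array 2, 4 or 6 or BT array 1, 2 or 4 (0.969 to 0.996). Its change in BMVs was 0.37 after quantile normalization and 0.40 after centring on reference genes.

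The remaining fibrillar chains stayed under 2-fold in both organs, with 0.11 to 0.68 in RMVs and 0.13 to 0.78 in BMVs. The 2 clusters of Col5a1 disagreed on the call in BMVs, since the cluster used gave 0.78 ± 0.09 and the other 1.24 ± 0.08.

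**Figure D3:**
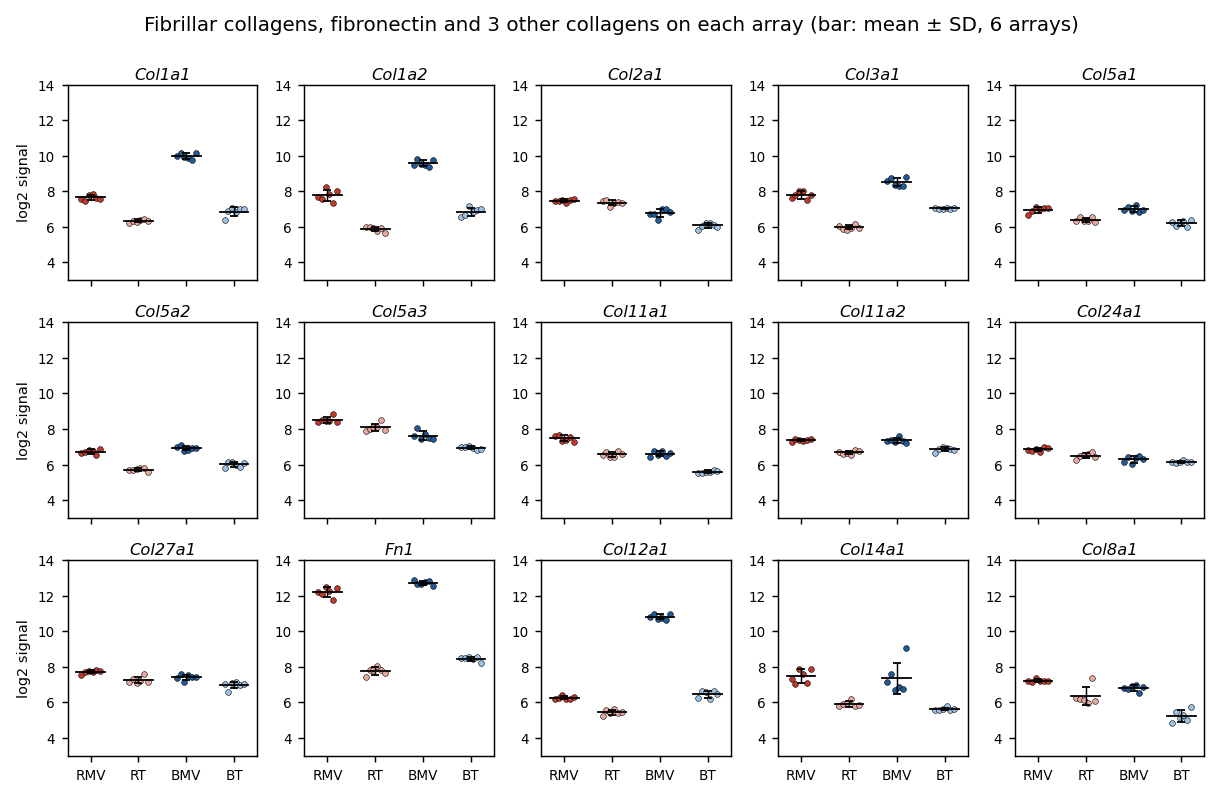
Log2 signal of 11 fibrillar collagens, Fn1, Col12a1, Col14a1 and Col8a1 on each array, with a point per array and bars for the mean ± SD of 6 arrays. Col1a1 and Col1a2 are far above BT in BMVs and modestly above RT in RMVs, Col12a1 is high in BMVs alone (10.65 to 11.0001), and single arrays stand out for Col14a1 (BMVs, 9.05) and Col8a1 (RT, 7.38).

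Col12a1, the gene of collagen XII, which decorates collagen I fibrils in dense connective tissue, had the largest difference between the organs of all 49 genes. It lay at 6.18, 6.24 and 6.41 in RMVs, against 5.23, 5.44 and 5.63 in RT. On the BMV arrays it lay at 10.65, 10.78 and 11.0001, against 6.21, 6.53 and 6.65 in BT. BMVs were 20.2-fold above BT (4.34 ± 0.09, adjusted p = 8.44e-24 by limma), and RMVs were above RT by 0.81 ± 0.09, short of 2-fold, so that the enrichment differed by -3.53 ± 0.12 (adjusted p = 4.10e-18). Col14a1, the gene of the related collagen XIV, behaved otherwise. It was at 7.05, 7.47 and 7.90 in RMVs, against 5.78, 5.88 and 6.21 in RT, and at 6.72, 6.99 and 9.05 in BMVs, against 5.57, 5.61 and 5.77 in BT. Its changes were 1.56 ± 0.25 and 1.72 ± 0.25, and without BMV array 6, which alone held 9.05, the change in BMVs was 1.38. The other 5 fibril-associated collagens (Col9a1, Col9a2, Col16a1, Col19a1 and Col20a1) were not called in either organ and ranged between -0.29 and 0.94.

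Of the smaller classes, Col6a2, a chain of the beaded collagen VI filaments next to basement membranes, was higher by 1.40 ± 0.09 in RMVs and by 1.16 ± 0.09 in BMVs. Col6a3 was called in BMVs alone (1.40 ± 0.07, against 0.76 ± 0.07 in RMVs, a difference of -0.64 ± 0.10 that stayed under 2-fold). Col8a1, a chain of the short-chain collagen VIII made by vascular cells, lay at 7.13, 7.19 and 7.36 in RMVs, against 5.99, 6.17 and 7.38 in RT, and at 6.54, 6.85 and 7.001 in BMVs, against 4.84, 5.23 and 5.75 in BT. It was called in BMVs (1.57 ± 0.17) and not in RMVs (0.87 ± 0.17). The other RT arrays (5.99 to 6.27) lay below all RMV arrays, and only RT array 5 (7.38) overlapped with them. The same array held the highest mean of 8 markers of the retinal pigment epithelium and choroid, with 7.82 against 6.09 to 6.74 on the other RT arrays, and its part in the value was not tested. Col8a2 (1.09 ± 0.10), Col13a1 (1.17 ± 0.09) and Col7a1, the gene of anchoring fibrils (1.18 ± 0.08), were called in BMVs alone, and Col8a2 fell to 0.96 without BT array 2. After quantile normalization these changes were 0.54 for Col8a2, 0.61 for Col13a1 and 0.57 for Col7a1. Col6a6, Col10a1, Col17a1, Col23a1 and Col26a1 were called in neither organ, with 0.20 to 0.96.

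Whether the microvessels of the organs differ directly was asked by setting RMVs against BMVs. Of the 49 genes, 14 (28.6%) were lower in RMVs, against 5.25% of all genes, and 1 was higher, against 5.72% of all genes. The genes lower in RMVs were 11 of the 19 of the basement membrane (median -1.14), 2 fibrillar collagens of 11 (Col1a1 and Col1a2, class median -0.00) and Col12a1, and the gene higher was Lamb3. The largest deficits were those of Col12a1 with -4.55 ± 0.09 (23.3-fold), Lama1 with -2.71 ± 0.08, Nid2 with -2.36 ± 0.12, Col1a1 with -2.33 ± 0.10 and Col1a2 with -1.80 ± 0.12. For each of these 5 genes no RMV array reached any BMV array, with adjusted p between 4.27e-25 and 8.58e-13 by limma. Col15a1, Lama2, Lamb2, Lamc1, Lamc3, Col18a1, Lama5, Agrn and Lama4 had differences of -1.46 to -1.09, and Lama4 was lost after quantile normalization while Col4a5 and Col6a3 were added. The 5 measured genes of collagen IV lay between -0.72 (Col4a5) and -0.07 (Col4a4), and none of them was called, nor were Nid1 (-0.73) and Lama3 (-0.61).

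Markers of other cells differed between these vessels too. Of 8 endothelial markers 2 were called lower in RMVs (list median -0.78), and of 8 markers of pericytes and smooth muscle cells 1 (median -0.55), against 5.25% of all genes. Of 8 markers of astrocytes and Muller glia 4 were lower and 1 higher in RMVs (median -1.09), while all 7 photoreceptor markers were higher in RMVs. Of all genes, 5.25% were lower and 5.72% higher in RMVs than in BMVs. Of 7 neuron markers, 3 were lower in RMVs than in RT (median -0.78), against 0.947% of all genes. In BMVs 7 were lower than in BT (median -2.79), against 10.5% of all genes. The part of these cells in the values of the matrix genes was not tested.

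The enrichment over the own tissue sets each kind of vessel against its organ. The difference of enrichment, retina minus brain, was called negative for 10 of the 49 genes (20.4%), against 5.15% of all genes, and positive for 0, against 10.4% of all genes. Of the 10 genes, 8 belong to the basement membrane (Lama1, Nid2, Lamc3, Col18a1, Lama3, Col15a1, Lama5 and Lama4), and the others are Col12a1 and Col1a1. Lama5 (-1.06 ± 0.14) and Lama4 (-1.05 ± 0.13) were the closest to the 2-fold line and fell below it without a single array: Lama5 had -0.97 without RMV array 5, and Lama4 had -0.99 without RT array 4 and -0.99 without BT array 3. Both were also lost after quantile normalization, where the other 8 were called. The direction was the same for all 10 genes under all 3 other scalings.

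**Figure D4:**
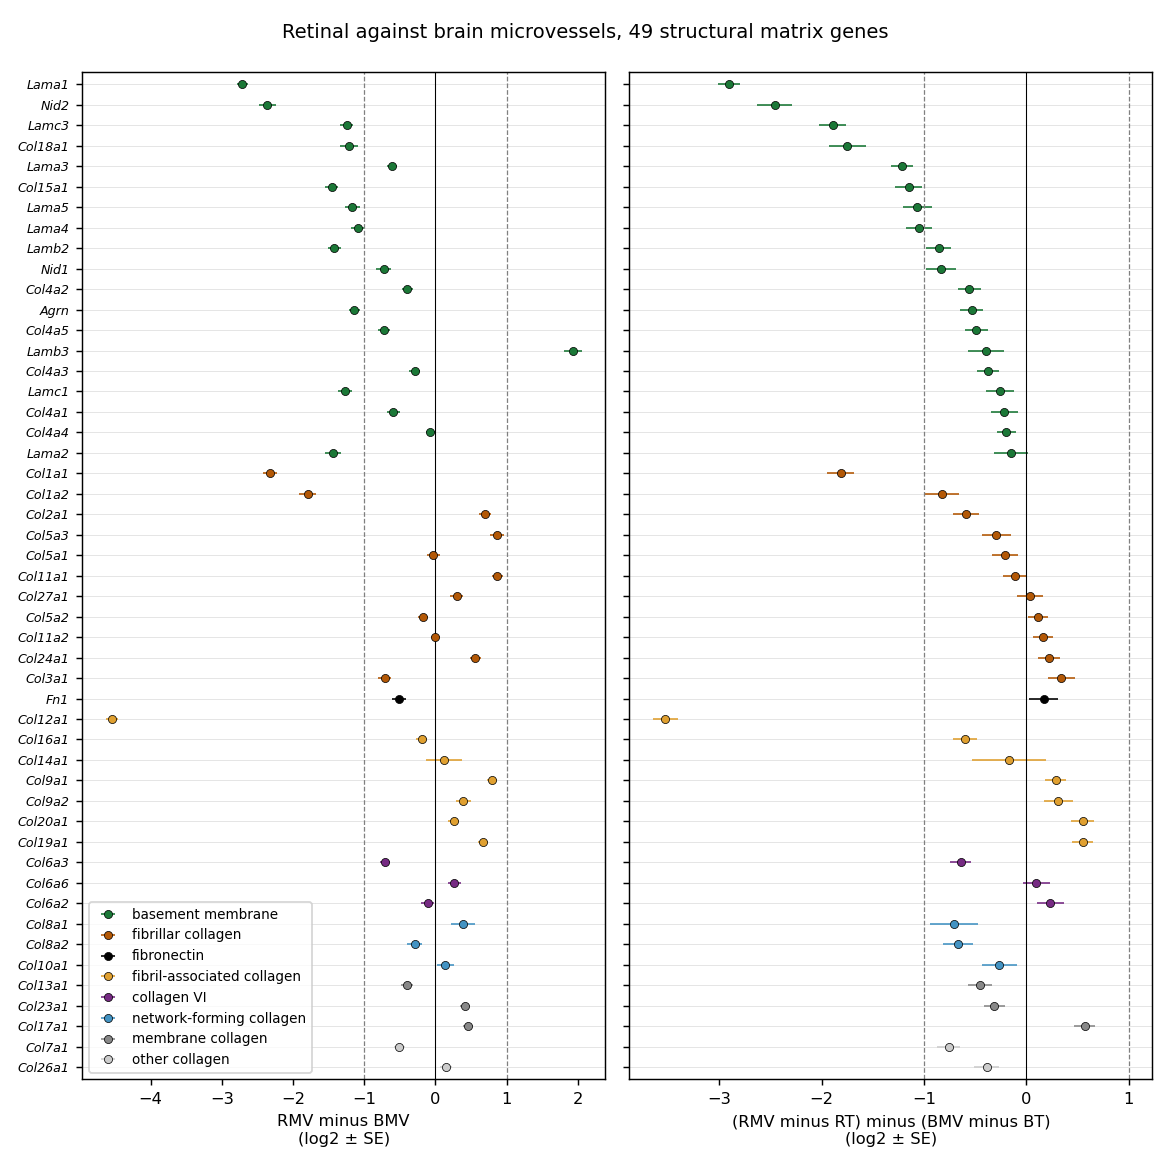
Log2 difference between RMVs and BMVs (left) and between the enrichment over tissue in retina and brain (right) for 49 structural matrix genes, with bars of 1 SE and dashed lines at 2-fold. Col12a1 lies lowest in both panels (-4.55 and -3.53), Lama1 and Nid2 lead the basement membrane, and Lamb3 (1.93) alone passes 2-fold upward in the left panel.

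Most markers of fibroblasts differed between the vessels as well. Of 9 measured markers, 4 (Dcn, Ogn, Aspn and Pi16) were higher in RMVs than in RT, against 10.3% of all genes. In BMVs 7 were higher than in BT, against 16.3% of all genes, and 1 (Dpt) was lower, against 10.5%. Between the vessels 6 were lower in RMVs than in BMVs, against 5.25% of all genes, and 0 were higher, against 5.72%. Aspn, Dpt and Mfap5 were not called between the vessels. The mean level of the list was 6.67 to 6.96 on the RMV arrays, 5.46 to 5.83 in RT, 9.31 to 9.57 in BMVs and 6.55 to 6.83 in BT. Decorin, a proteoglycan that binds collagen I fibrils, averaged 5.98 ± 0.52 in RMVs, 4.49 ± 0.29 in RT, 12.73 ± 0.15 in BMVs and 8.69 ± 0.33 in BT (SD, n = 6 each). Lum, the gene of lumican, which likewise binds fibrils, was at 3.92 ± 0.22 in RMVs and 3.70 ± 0.14 in RT, and at 10.08 ± 0.16 in BMVs and 5.36 ± 0.48 in BT. The transporter gene Slc6a13 followed the same pattern, with 6.74 ± 0.45 in RMVs and 11.49 ± 0.07 in BMVs, but Aspn did not, with 9.23 ± 0.40 and 9.23 ± 0.21. Of 6 markers of microglia and perivascular macrophages 5 were lower in RMVs than in BMVs, against 5.25% of all genes. Among them was Mrc1, with 5.19 ± 0.06 in RMVs and 9.15 ± 0.09 in BMVs. The part of these cells in the difference in matrix genes was not tested.

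**Figure D5:**
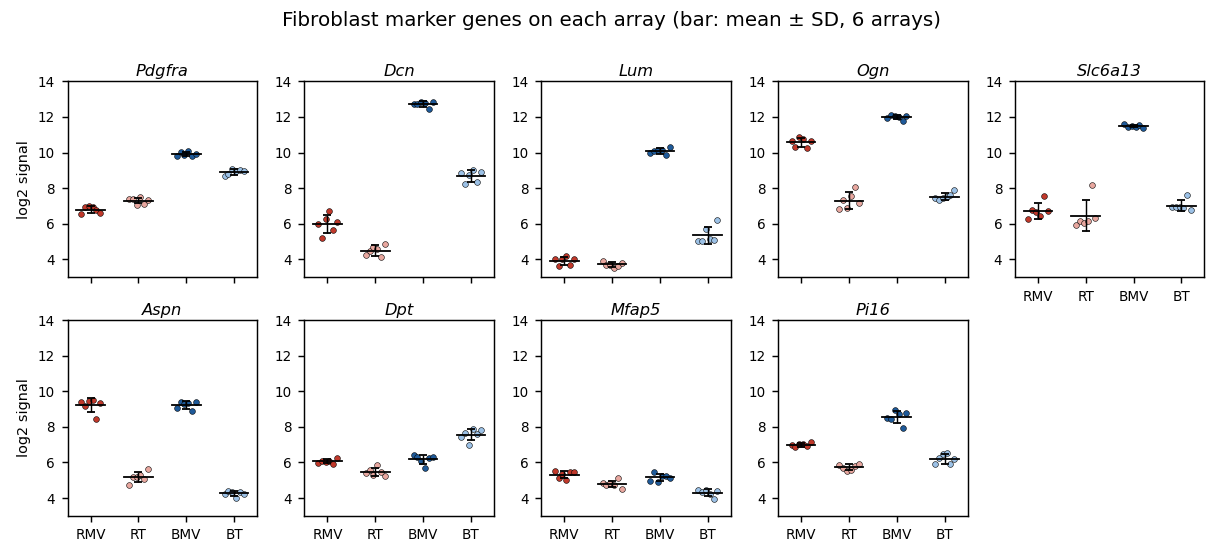
Log2 signal of 9 fibroblast marker genes on each array, with a point per array and bars for the mean ± SD of 6 arrays. Dcn, Lum and Slc6a13 are high in BMVs (means 12.73, 10.08 and 11.49) and low in RMVs (5.98, 3.92 and 6.74), while Aspn lies at 9.23 in both kinds of microvessel.

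The tissues without isolation of vessels gave a different picture. Of the 49 genes, 4 were higher in RT than in BT and 4 lower (8.16% each), against 6.29% and 11.1% of all genes, so these shares were near those of all genes. Beside Lamb3, the genes higher in RT were Col2a1, Col5a3 and Col8a1. Col2a1, the collagen of cartilage and vitreous, lay at 7.13, 7.37 and 7.48 in RT, against 5.84, 6.07 and 6.22 in BT, with no overlap and a change of 1.28 ± 0.09. It did not mark the retinal vessels, with 7.34, 7.47 and 7.57 in RMVs, which overlapped with RT (0.11 ± 0.09, adjusted p = 0.274). Col5a3 lay at 7.90, 8.06 and 8.48 in RT, against 6.84, 6.95 and 7.04 in BT (1.15 ± 0.10), and the RMV arrays held it at 8.37, 8.43 and 8.82, against 7.44, 7.56 and 8.07 in BMVs. The change of Col8a1 (1.10 ± 0.17) fell to 0.89 and lost its call without RT array 5.

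The genes lower in RT than in BT were Lama2 (-1.29 ± 0.12), Col3a1 (-1.06 ± 0.09), Lamc1 (-1.02 ± 0.10) and Col12a1 (-1.02 ± 0.09), and their RT arrays lay below all BT arrays. The calls of Lamc1 and Col12a1 were lost when single arrays were left out, RT arrays 2 and 5 and BT array 2 for Lamc1 and RT array 1 and BT arrays 2, 3 and 5 for Col12a1 (-0.994 to -0.974). After centring on reference genes none of these 4 genes was called, and after quantile normalization Lamc1 and Col8a1 were not. By class, the medians were 0.08 for the basement membrane and 0.18 for the fibrillar collagens, against 0.02 for all genes.

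The proteins that make, anchor and sense this matrix were followed with 3 gene lists. Genes are named where they were among the 3 largest called changes of a comparison. A gene given for a single kind of microvessel can thus have changed in the other too. Of 26 genes of collagen processing and crosslinking, 10 were higher in RMVs than in RT and 0 lower (median 0.89), and 18 were higher in BMVs than in BT and 2 lower (median 1.29), while 1 was higher and 5 were lower in RMVs than in BMVs. For all 3 lists the shares of all genes called are 10.3% higher and 0.947% lower in RMVs against RT, 16.3% and 10.5% in BMVs against BT, and 5.72% and 5.25% in RMVs against BMVs. The 2 genes lower in BMVs and the 1 higher in RMVs than in BMVs are thus no more than the share of all genes gives. In RMVs the largest changes were those of Loxl2, a lysyl oxidase that crosslinks collagen (2.38), Crtap, a part of the prolyl 3-hydroxylase complex (2.14), and Pcolce, an enhancer of procollagen cleavage (1.80). In BMVs Lox, the founding lysyl oxidase (4.43), Pcolce (3.84) and the prolyl 3-hydroxylase gene P3h2 (3.24) led, while the procollagen protease gene Adamts3 (-2.54) and the prolyl 4-hydroxylase gene P4ha3 (-1.12) were lower. Lox was at 6.07 ± 0.36 in RMVs and 5.17 ± 0.27 in RT, and at 7.81 ± 0.28 in BMVs and 3.38 ± 0.44 in BT (SD, n = 6 each), so that its enrichment differed by -3.52 (adjusted p = 5.24e-12 by limma).

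Of 14 further proteins of basement membranes, 7 were higher in RMVs and 0 lower (median 0.86), and 10 were higher in BMVs and 1 lower (median 1.36), while 1 was higher and 1 lower in RMVs than in BMVs, near the shares of all genes, as is the 1 lower in BMVs than in BT. Tinagl1, a matricellular protein bound to laminin, rose by 4.13 in RMVs and 4.63 in BMVs, and Hmcn1, the gene of hemicentin-1, by 2.82 and 4.001. Egfl7, an endothelial matrix protein, rose by 1.78 in RMVs. Egflam, the gene of pikachurin, which photoreceptor synapses need in the mouse retina, rose by 3.59 in BMVs and had 0.32 in RMVs, since RT (9.32 ± 0.10) was near RMVs (9.63 ± 0.07) and BT (6.20 ± 0.26) far below BMVs (9.79 ± 0.11). Ntng1, a netrin-G of neurons, was lower in BMVs (-2.80).

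Of 21 matrix receptors, 10 were higher in RMVs and 0 lower (median 0.89), and 15 were higher in BMVs and 0 lower (median 1.21), while 1 was higher, near the share of all genes, and 5 were lower in RMVs than in BMVs. Itga1, the collagen and laminin receptor of mural and endothelial cells, rose by 3.38 in RMVs and 4.495 in BMVs, and Ddr2, a receptor for fibrillar collagens, by 2.92 and 3.02. The third gene named in RMVs was the laminin receptor gene Itga6 (3.38). In BMVs it was Bcam (3.99), whose protein binds the laminin alpha-5 chain. Neither is thereby shown to be particular to its organ.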

How the data were processed

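The deposited values are log2 signals of 36685 transcript clusters, which the authors normalized in Affymetrix Expression Console (version 4.0). How they were normalized and on which build is not given in the sources used here, and the values were used without further scaling. Clusters with several symbols were left out, and for genes with several clusters that of the highest mean was kept. All 24 arrays entered 1 linear model of the 4 groups in limma 3.58.1 (R 4.3.3), two-sided, with Benjamini-Hochberg adjustment over 18166 genes. A call needed a 2-fold change and an adjusted p under 0.05. Named in full are basement membrane and fibrillar genes called in any contrast, Fn1 and the 5 largest called changes per direction and contrast, and from the 3 pathway lists the 3 largest per direction. The genes, lists and classes were chosen with earlier results of these data known. No identical arrays were found (highest correlation 0.989), and in simulated data all 200 changed genes were called. The number of arrays limits the precision. Protein sequences were not used here.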

Additional observations from a re-analysis of the deposited data

Results flagged for a closer look

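Among 196 sets of 6 arrays (49 genes in 4 groups), 19 held an array whose gap to its nearest neighbor was large for the range of the group, of which chance flags about 1 in 20. RMV array 5 was the array flagged most often, low for Nid2 (7.16), Col6a2 (7.59) and Col13a1 (7.05) and high for Col5a3 (8.82). The same array had the lowest mean of the RMV arrays for endothelial markers (11.2) and for markers of pericytes and smooth muscle cells (10.5, the others 10.9 to 11.4), and the highest for markers of the retinal pigment epithelium and choroid (7.20, the others 6.21 to 6.59). The part of these cells in the 4 values was not tested. BMV array 3 was low for Col6a6 (5.19), Col13a1 (7.37) and Col26a1 (5.39). In the other BMV arrays Lama1 was low on array 5 (8.97), and Lama3 (7.75, array 6), Lamb2 (12.10, array 1), Col6a3 (7.76, array 2) and Col14a1 (9.05, array 6) were high. BT array 1 was high for Col6a6 (5.51) and Col19a1 (5.38), and BT array 2 low for Col27a1 (6.62). In RT, Col6a6 (5.07, array 1) and Col26a1 (5.14, array 3) were low, and Col8a1 (7.38, array 5) and Col7a1 (6.34, array 2) were high.

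The enrichment in microvessels over tissue differed between retina and brain, by the interaction test of limma, for Col12a1 (-3.53), Lama1 (-2.91), Nid2 (-2.46), Lamc3 (-1.89), Col1a1 (-1.81), Col18a1 (-1.75), Lama3 (-1.21), Col15a1 (-1.15), Lama5 (-1.06) and Lama4 (-1.05).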

How the results depend on the processing

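No call turned its direction under any alternative. The count of genes higher in RMVs than in RT (21) was 12 after quantile normalization, 10 with arrays centred on their medians (3.76% of all genes), 7 with arrays centred on B2m, Actb and Hprt1 (2.74%), and 33 at 1.5-fold (29.7%), and under each of these 3 scalings 1 gene (Lamb3) was lower, against 5.05%, 10.6% and 22.7% of all genes. In BMVs against BT the 31 higher genes were 20 with either centring (7.67% and 7.73%). Quantile normalization moved the basement membrane median minus the fibrillar median to 0.80 in RMVs against RT (0.58 as deposited), to 2.10 in BMVs against BT (1.67) and to -0.81 in RMVs against BMVs (-1.14). In RMVs against BMVs, 1.5-fold gave 6 genes higher (14.3%), and limma's test against 2-fold (treat) gave 8 lower (2.47%). In RT against BT, median centring gave 2 higher (4.16%), centring on reference genes 0 lower (7.12%), treat 2 higher (4.07%) and 0 lower (7.73%), and 1.5-fold 8 higher (15.4%) and 7 lower (20%). The difference of enrichment was called negative for 6 genes by treat (2.05%) and for 19 at 1.5-fold (13.5%). The labels do not say that equal numbers mark the same rat, and same-numbered arrays deviated together weakly (correlations of -0.09 to 0.15). In each pair of groups the median correlation for equal numbers (0.044 to 0.059) was above that for other numbers (-0.017 to -0.005). With the number as a replicate block, 21, 31, 15, 8 and 10 genes were called in the 5 contrasts, as without it.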
